A study of Mus musculus with 3 samples.

Results

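The 10 genes described here mark Langerhans cells or serve the presentation of antigen on MHC class II. They are Cd207, Epcam, Cd74, H2-Aa, H2-Ab1, H2-Eb1, Ciita, Cd80, Cd86 and Ccr7, taken by symbol from the 24011 named genes of the arrays, and all 10 had a value on every array. Epidermal RNA was measured on 3 Affymetrix arrays, 1 for each genotype, at 72 h after the first application of tamoxifen to epilated back skin. TNF KO mice (TNF-/-) lacked TNF in all cells and served as the reference. cFLIP KO mice (cFLIP fl/fl K14CreERtam) lost cFLIP, an inhibitor of caspase-8, through a Cre recombinase that tamoxifen activates in cells in which the keratin 14 promoter is active. cFLIP KO/TNF KO mice (TNF-/- cFLIP fl/fl K14CreERtam) lacked both. All 3 groups received tamoxifen, for 3 days by the sample labels and for 3 to 5 days at 25 mg/mL by the study's methods. Each array held RNA pooled from 4 animals by the labels and from 3 to 6 by the methods, and the strain and the age are not given in the sources used here. Cre is given for both cFLIP-deficient genotypes and not for TNF KO mice, and no wild-type array was analysed here. The cFLIP KO and TNF KO mice thus differ in both genes and in Cre.

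Langerhans cells are the dendritic cells of the epidermis. They hold langerin, the product of Cd207, and EpCAM, and they carry peptides on MHC class II molecules to T cells in the draining lymph node. A class II molecule is a pair of an alpha and a beta chain, which in the mouse is I-A (H2-Aa with H2-Ab1) or I-E (H2-Ea with H2-Eb1). The invariant chain, encoded by Cd74, occupies the groove until it is degraded and H2-DM loads a peptide. Transcription of these genes depends on the transactivator CIITA, which binds no DNA itself and is recruited by factors on the X and Y boxes of class II promoters. A maturing Langerhans cell raises the costimulatory ligands CD80 and CD86 and the chemokine receptor CCR7, which guides it to the lymph node.

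The boxes through which CIITA acts are shown first, because the class II genes are described together below. RefSeq promoters of build GRCm38.p6 matched 5 of the 10 genes and 12 of 13 other genes of the class II pathway. The windows printed here run from 140 to 31 bases before the annotated start. Capitals mark exact matches on either strand to a Y box core (ATTGG, which reads CCAAT on the other strand) and to an X box core (AGNNAC, then any base, then GAT, N being any base). H2-Eb1 matches both, and its neighbours H2-DMb1 and H2-Eb2 do so with nearly the same spacing between the boxes. H2-Aa matches the Y box core alone, which does not show that it lacks an X box of other letters. Cd207 is given as a Langerhans cell gene outside the class II family.
H2-Eb1, chr17:34305727-34305836, plus strand: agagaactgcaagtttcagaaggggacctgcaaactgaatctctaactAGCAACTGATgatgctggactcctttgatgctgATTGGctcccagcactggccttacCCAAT
H2-DMb1, chr17:34153051-34153160, plus strand: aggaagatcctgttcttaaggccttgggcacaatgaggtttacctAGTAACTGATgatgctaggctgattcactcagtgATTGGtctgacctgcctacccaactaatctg
H2-Eb2, chr17:34325535-34325644, plus strand: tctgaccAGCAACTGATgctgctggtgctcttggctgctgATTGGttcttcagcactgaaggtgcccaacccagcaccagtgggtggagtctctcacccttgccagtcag
H2-Aa, chr17:34287854-34287963, minus strand: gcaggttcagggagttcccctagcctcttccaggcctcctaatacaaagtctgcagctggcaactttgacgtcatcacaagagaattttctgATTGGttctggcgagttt
Cd207, chr6:83677888-83677997, minus strand: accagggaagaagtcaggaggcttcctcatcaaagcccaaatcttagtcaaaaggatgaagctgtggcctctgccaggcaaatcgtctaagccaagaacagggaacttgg

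In H2-Eb1 and H2-Eb2, 23 bases lay between the end of the X box core and the Y box core, and in H2-DMb1 24 bases did. Of 32851 promoters of 300 bases, 37.4% held the Y box core, 2.68% the X box core and 8 (0.0244%) the X box core followed by the Y box core on the strand of the gene with 10 to 30 bases between, an arrangement searched after the sequences had been seen. These 3 class II promoters were among the 8. The interferon-gamma activated site TTCNNNGAA, in 8.3% of all promoters on either strand, had no exact match in the windows of H2-Aa, H2-Eb1, Cd207, Epcam or Cd80. A match or its lack describes these letters and says nothing of binding.

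With 1 array per genotype there was no replicate error and no test was run, so "higher" and "lower" describe these arrays, and it is not known which differences exceed the spread between animals. In RNA of whole epidermis, fewer cells of a type and less RNA per cell cannot be told apart. Differences are of deposited log2 values, in which 1 is 2-fold. The cFLIP KO array stood apart: its values had an SD of 1.77 over genes against 2.06 for TNF KO and 2.04 for cFLIP KO/TNF KO, and in the 2401 genes of highest mean signal the median gap to TNF KO was -0.79 for cFLIP KO but -0.01 for cFLIP KO/TNF KO. The 10 genes, and the list calls that a scaling ended, are therefore described also with the arrays scaled by Actb or by 6 reference genes, after subtraction of a lowess trend on the signal, and after a repeated quantile normalization. Scaling by Actb moves the median of all genes to -0.52 in cFLIP KO/TNF KO, and reference genes move it to 0.29 in cFLIP KO. The 6 reference genes themselves differed from TNF KO in cFLIP KO by -1.07 (Hprt) to 0.47 (Ywhaz). Of these 6, Rplp0 was below the 95th percentile of olfactory receptor genes on every array. For 52.6% of genes TNF KO and the double knockout cFLIP KO/TNF KO carry the very same value, so such a pair is called equal, which is no measurement of stability. Tnf was listed at 5.11 for TNF KO, 5.79 for cFLIP KO, and 5.21 on the cFLIP KO/TNF KO array, so both TNF-deficient arrays were above the 95th percentile of olfactory receptor genes (3.99 and 4.05). Cflar, which encodes cFLIP, differed from TNF KO by -0.71 in cFLIP KO and by -0.47 in cFLIP KO/TNF KO, and whether the probes of either gene lie in the deleted part was not analysed here. Xist was at 8.58 for TNF KO, 4.62 for cFLIP KO, and 8.98 on the cFLIP KO/TNF KO array, and the Y-linked Eif2s3y at 6.73, 6.08 and 5.14 in that order, so the sex makeup of the pools may differ and its part in the results was not tested.

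**Figure D1:**
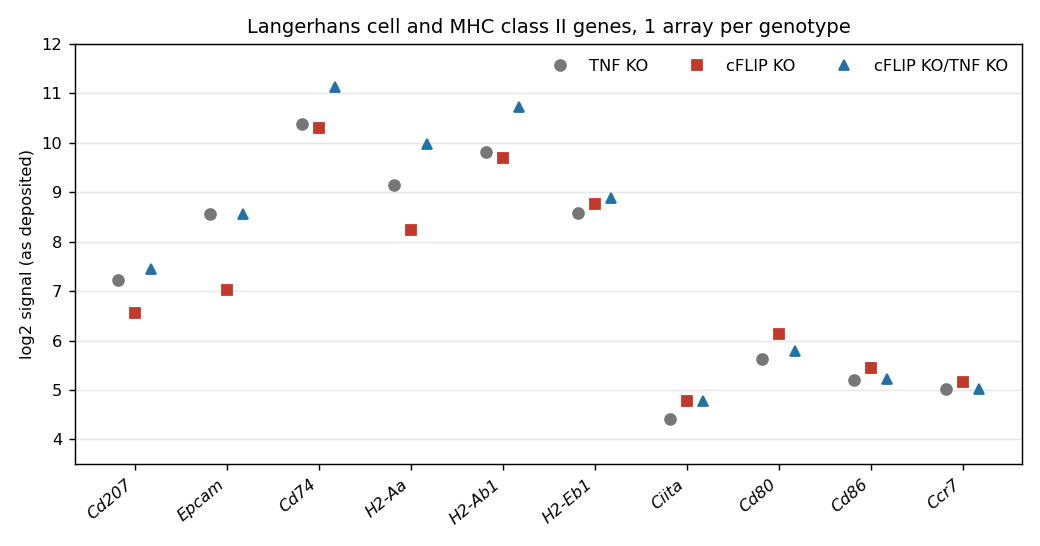
Log2 signal as deposited (vertical axis) of the 10 genes on the arrays of TNF KO (circles), cFLIP KO (squares) and cFLIP KO/TNF KO (triangles), 1 point per array and no error bars because each genotype has 1 array. Cd74, H2-Aa, H2-Ab1 and H2-Eb1 are highest on the cFLIP KO/TNF KO array, and Cd207, Epcam and H2-Aa lie clearly lowest on the cFLIP KO array. The order of H2-Eb1 turned under 4 of 5 scalings.

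The defining Langerhans cell gene Cd207 was lower in cFLIP KO epidermis than in both others. Its log2 signal was 7.22 for TNF KO, 6.56 for cFLIP KO, and 7.44 on the cFLIP KO/TNF KO array. cFLIP KO was the low array, 1.57-fold below TNF KO and 1.84-fold below cFLIP KO/TNF KO. The log2 difference from TNF KO of -0.65 was close to the median of the 2401 genes next to it in signal (-0.58, ranked bin 9 of 10), and over the 5 scalings it ran from -0.65 to -0.12 without changing sign. The difference between cFLIP KO/TNF KO and TNF KO was 0.22, and -0.30 under scaling by Actb.

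Epcam, whose product is an adhesion molecule of Langerhans cells and also of some epithelial cells, had the largest difference of the 10 genes from TNF KO as deposited. H2-Ab1 in cFLIP KO/TNF KO differed by about as much once the lowess trend was taken out (0.95). With repeated quantile normalization H2-Ab1 (1.07) and H2-Aa (0.92) in cFLIP KO/TNF KO and H2-Eb1 in cFLIP KO (0.93) differed by more. Epcam was at 8.57 for TNF KO, 7.02 for cFLIP KO, and 8.57 on the cFLIP KO/TNF KO array, the first and the last being exactly equal. Its cFLIP KO value was low, 2.93-fold below either. Of the 2401 genes of highest mean signal, to which it belongs, 16.4% were at least as far below TNF KO. Against TNF KO this was -1.55 on the log2 scale as deposited, and within 2-fold after the lowess trend (-0.95) and after repeated quantile normalization (-0.85). The genes with the most similar pair of differences from TNF KO, over 3 arrays and 11836 protein-coding candidates, were Ginm1, Sf3a1, Lifr, Mtmr9 and Prc1, at distances of 0.0020 to 0.0078 on the log2 scale. All 5 were, like Epcam, listed at equal values in TNF KO and cFLIP KO/TNF KO.

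The class II chains were highest in cFLIP KO/TNF KO epidermis as deposited, and H2-Ab1, H2-Aa and Cd74 were so under all 5 scalings, while H2-Eb1 was higher in cFLIP KO under 4 of them. H2-Ab1, the beta chain of I-A, was at 9.82 for TNF KO, 9.70 for cFLIP KO, and 10.73 on the cFLIP KO/TNF KO array, so that the cFLIP KO/TNF KO array stood 1.89-fold above TNF KO and 2.04-fold above cFLIP KO. The log2 difference from TNF KO was 0.92, and 0.39 under Actb, and that of cFLIP KO from cFLIP KO/TNF KO was -1.03 and within 2-fold under the 4 other scalings (-0.76 to -0.33). Cd74, the invariant chain, was at 10.38, 10.31 and 11.14 in the same order, 1.70-fold higher in cFLIP KO/TNF KO than in TNF KO (0.76 on the log2 scale, and 0.24 under Actb). Both genes had nearly the same value in TNF KO and cFLIP KO as deposited, with log2 differences of -0.12 and -0.07, which turned to 0.64 and 0.70 after the lowess trend.

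H2-Aa, the alpha chain that pairs with H2-Ab1, differed from it in cFLIP KO. Its log2 signal was 9.15 for TNF KO, 8.24 for cFLIP KO, and 9.97 on the cFLIP KO/TNF KO array. The cFLIP KO array was low and the cFLIP KO/TNF KO array high, 3.31-fold apart. Against TNF KO the log2 difference was -0.91 in cFLIP KO, between -0.91 and -0.18 over the scalings, and 0.82 in cFLIP KO/TNF KO, between 0.29 and 0.92. The -0.91 was close to the median of the 2401 genes of highest mean signal (-0.79), of which 44.1% were at least as low. H2-Ab1, Cd74 and H2-Eb1, of the same bin, lay above that median by 0.68, 0.72 and 0.99. Between the cFLIP-deficient genotypes H2-Aa differed by -1.73, and 8.04% of that bin were at least as low. It was the one gene of the 10 that stayed at least 2-fold different there under all 5 scalings (-1.73 to -1.05). Within the arrays, which takes out any constant scaling, H2-Aa was low relative to H2-Ab1 in cFLIP KO, with a difference of log2 differences from TNF KO of -0.79, against -0.10 in cFLIP KO/TNF KO.

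H2-Eb1, the beta chain of I-E, was the flattest of the class II chains as deposited. It was at 8.57 for TNF KO, 8.77 for cFLIP KO, and 8.89 on the cFLIP KO/TNF KO array, with the TNF KO array lowest. Against TNF KO it differed by 0.20 on the log2 scale in cFLIP KO, above 0 under all 5 scalings and up to 0.93, and 0.32 in cFLIP KO/TNF KO, which turned to -0.21 under Actb. Relative to H2-Eb1, H2-Aa differed in cFLIP KO from its place in TNF KO by -1.11. H2-Ea, the partner of H2-Eb1 and a pseudogene in the C57BL/6J reference, was listed at 3.06, 3.08 and 3.08, near the median of olfactory receptor genes (2.80 to 2.86).

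Across H2-Aa, H2-Ab1, H2-Eb1 and Cd74 the mean log2 difference from the reference was -0.22 for cFLIP KO (-0.91 to 0.20) and 0.70 in cFLIP KO/TNF KO (0.32 to 0.92). Set against Cd207 on the same arrays, this mean was higher by 0.43 in cFLIP KO and by 0.48 in cFLIP KO/TNF KO. A constant scaling cannot move such a difference. After the lowess trend it was 0.77 and 0.51, and after repeated quantile normalization 0.52 and 0.56. H2-Ab1, H2-Eb1 and Cd74 were each higher relative to Cd207 on both cFLIP-deficient arrays than on the TNF KO array. As deposited, H2-Aa was lower relative to Cd207 in cFLIP KO, by -0.26, and higher in cFLIP KO/TNF KO, by 0.60. The former did not hold after the lowess trend, where H2-Aa was at -0.21 and Cd207 at -0.26 against TNF KO. After repeated quantile normalization they were at -0.18 and -0.12. H2-Ab1 had a difference between cFLIP KO/TNF KO and TNF KO that 0.74% of all genes reached or passed, H2-Aa 0.93%, Cd74 1.04% and H2-Eb1 3.23%. Among the 2401 genes of highest mean signal, to which these genes belong, the shares were larger, at 1.54%, 2.00%, 2.29% and 7.16%.

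Ciita, the transactivator of these genes, was dim, with 4.41 for TNF KO, 4.79 for cFLIP KO, and 4.79 on the cFLIP KO/TNF KO array, the last pair exactly equal. Both cFLIP-deficient arrays were above TNF KO by 0.38, a difference that 17.4% of all genes reached for cFLIP KO but 2.67% for cFLIP KO/TNF KO (there -0.15 under Actb). Of the 2401 genes next to Ciita in signal, 33.2% and 3.17% reached it. On the cFLIP KO array Ciita lay just above the 95th percentile of olfactory receptor genes (4.73), a mark that was 3.99 for TNF KO. As deposited, the order of the arrays for Ciita was not that of H2-Aa, which was low in cFLIP KO.

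The costimulatory and migration genes differed little. Cd80 was at 5.64 for TNF KO, 6.12 for cFLIP KO, and 5.78 on the cFLIP KO/TNF KO array. Cd86 was at 5.20, 5.46 and 5.22 in that order, and Ccr7 at 5.03, 5.16 and 5.03, with equal values in TNF KO and cFLIP KO/TNF KO. All 3 were highest in cFLIP KO, by 0.49, 0.25 and 0.13 over TNF KO, and above 0 there under all 5 scalings. Against cFLIP KO/TNF KO they were higher by 0.34, 0.23 and 0.13, also above 0 under all 5. These differences were small, and 13.5%, 22.7% and 30.6% of all genes were at least as far above TNF KO in cFLIP KO.

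**Figure D2:**
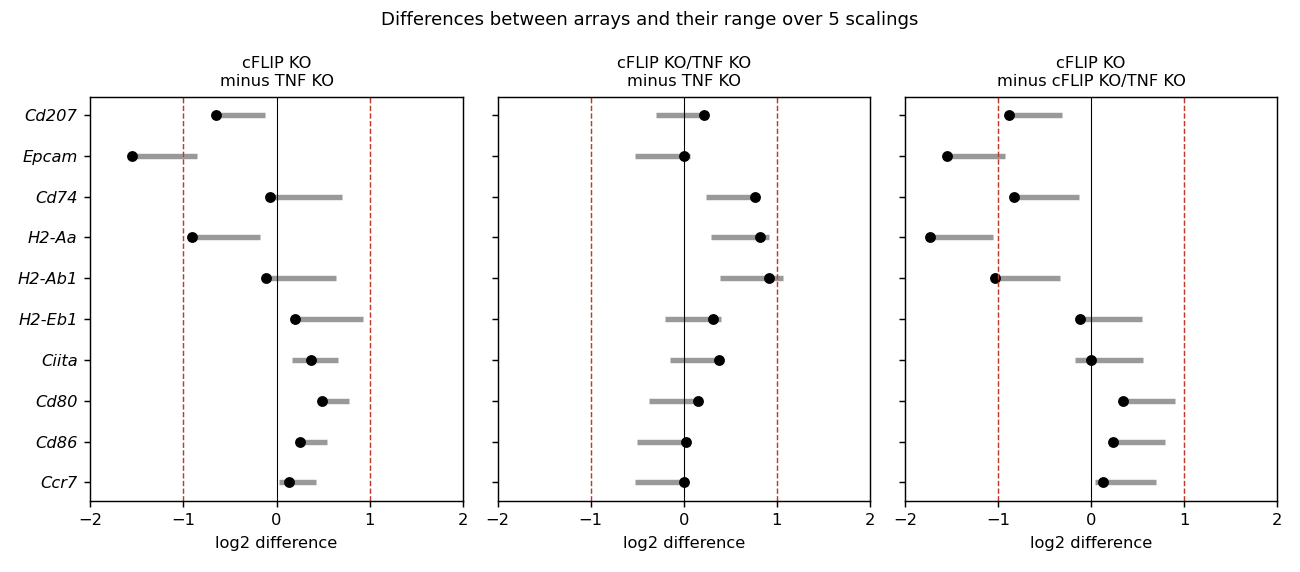
Log2 differences (horizontal axes) of the 10 genes in 3 comparisons; black points are the deposited values, gray bars the range over 5 scalings, and dashed lines 2-fold. In the comparison of both cFLIP-deficient genotypes the bar of H2-Aa, from -1.73 to -1.05, lies wholly past the 2-fold line.

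Counted past 2-fold, 1 of the 10 genes was lower on the cFLIP KO array than on that of TNF KO (Epcam) and 0 were higher, where 9.15% of all genes were lower, 3.88% higher and 13% either. In cFLIP KO/TNF KO against TNF KO 0 of 10 passed in either direction, where 0.629% of genes were higher, 0.225% lower and 0.854% either. At 1.5-fold, 3 of 10 were higher there (Cd74, H2-Aa and H2-Ab1) and 0 lower, beside 1.48% and 1.04% of all genes. Under Actb these 3 were at 0.24, 0.29 and 0.39, so none passed 1.5-fold. With cFLIP KO set against cFLIP KO/TNF KO, 3 were lower by 2-fold or more (Epcam, H2-Aa and H2-Ab1) and 0 higher, beside 8.07% and 3.32% of all genes and 11.4% either way. The scaling moves these shares of all genes: for cFLIP KO against TNF KO they were 5.73% lower and 8.02% higher under reference genes, 4.95% and 3.9% after the lowess trend, and 4.84% and 4.26% after repeated quantile normalization. For cFLIP KO/TNF KO against TNF KO, Actb gave 1.83% lower and 0.254% higher. For cFLIP KO against cFLIP KO/TNF KO the lower and higher shares were 2.65% and 14.3% under Actb, 4.75% and 7.05% under reference genes, 4.01% and 3.49% after the lowess trend, and 4.1% and 3.84% after repeated quantile normalization. Bright genes as a whole were low on the cFLIP KO array, and of the 2401 brightest, which hold these 3 genes, 33.9% fell 2-fold or more short of cFLIP KO/TNF KO. The median log2 difference of the 10 genes from TNF KO was 0.03 for cFLIP KO, 0.27 for cFLIP KO/TNF KO (-0.25 under Actb), and -0.48 for cFLIP KO set against cFLIP KO/TNF KO (0.084 under Actb), while that of all genes was 0.00 in each as deposited. Under Actb that of all genes was -0.52 for cFLIP KO/TNF KO and 0.56 for cFLIP KO set against cFLIP KO/TNF KO.

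**Figure D3:**
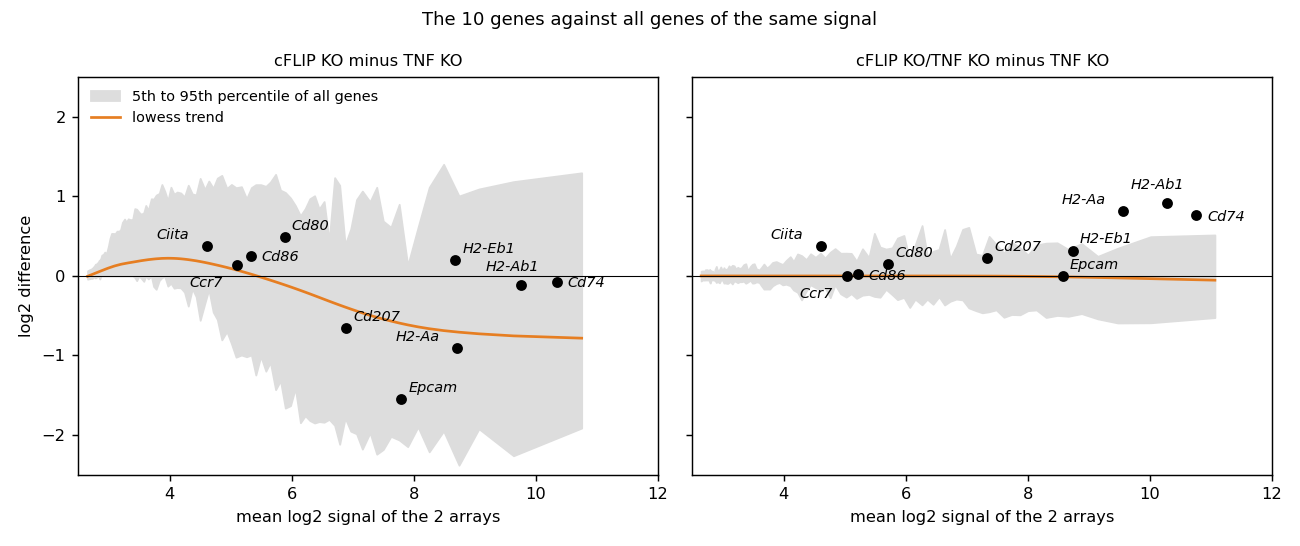
Log2 difference from TNF KO (vertical axes) against the mean log2 signal of the compared arrays for cFLIP KO (left) and cFLIP KO/TNF KO (right); black points are the 10 genes, gray the range from the 5th to the 95th percentile of all genes in 100 bins of signal, and the orange line the lowess trend. On the left Cd207 and H2-Aa lie near the trend, and on the right Cd74, H2-Aa, H2-Ab1 and the dimmer Ciita lie above the gray range.

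Genes that load class II molecules were uneven. Of 13 measured genes for peptide loading, minor class II chains and turnover, 2 lay 2-fold or more above TNF KO and 2 below it in cFLIP KO, and 2 lay above and 0 below in cFLIP KO/TNF KO, with list medians of 0.00 and 0.03. The higher ones were the same pair in both, Ctss and Lgmn, whose proteases degrade the invariant chain and process antigens. Ctss was at 9.04 for TNF KO, 10.23 for cFLIP KO, and 10.49 on the cFLIP KO/TNF KO array, and Lgmn at 8.26, 9.26 and 9.50, both low on the TNF KO array. In cFLIP KO/TNF KO they were at 0.94 and 0.72 when scaled by Actb. The lower ones in cFLIP KO were H2-DMb2 and Marchf8, a ubiquitin ligase that acts on class II molecules, with -1.01 (within 2-fold under the 4 other scalings).

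H2-DMb2, a beta chain of the peptide editor H2-DM, was at 7.30 for TNF KO, 5.06 for cFLIP KO, and 7.80 on the cFLIP KO/TNF KO array. The cFLIP KO value was off by -2.24, which stayed between -2.24 and -1.95 over the scalings. Its close copy H2-DMb1 was at 4.94, 4.88 and 5.33, and the partner alpha chain H2-DMa at 5.62, 5.62 and 5.70, so neither had the low value of cFLIP KO. H2-DMb1 lay just above the 95th percentile of olfactory receptor genes on the cFLIP KO array (4.73), so a lower value there could hardly be seen. H2-DMb1 and H2-DMb2 are similar in sequence, and how the probes were divided between them was not analysed here.

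Among 13 measured genes of class II transcription and of the interferon-gamma pathway that induces Ciita, 0 passed 2-fold upward and 2 downward in cFLIP KO against TNF KO, with a median of -0.20, and 0 passed in cFLIP KO/TNF KO, with a median of 0.00. The lower ones were Nfyb, a subunit of the factor that binds the Y box, at 5.98 for TNF KO, 4.76 for cFLIP KO, and 6.42 on the cFLIP KO/TNF KO array, and Ifngr2, a chain of the interferon-gamma receptor, at 8.88, 7.72 and 9.02. Ifngr2 was within 2-fold with reference genes (-0.88), the lowess trend (-0.50) and repeated quantile normalization (-0.41), and Nfyb under reference genes (-0.93). In those 3 settings 1 gene of the list passed upward. Jak2, the kinase of that receptor chain, was above TNF KO in both cFLIP-deficient genotypes, by 0.71 (0.71 to 1.41 over the scalings) and 0.94 (0.41 to 0.98). Irf1, a transcription factor that interferon-gamma induces, was above TNF KO by 0.88 (0.87 to 1.17) and 0.78 (0.26 to 0.80). Ifng itself was listed at 3.26, 3.27 and 3.26, among the dim values.

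Factors that sustain Langerhans cells were uneven. Il34, the keratinocyte ligand of CSF1R on which Langerhans cells depend, was at 5.86 for TNF KO, 4.54 for cFLIP KO, and 5.93 on the cFLIP KO/TNF KO array. Its cFLIP KO value lay below the 95th percentile of olfactory receptor genes on that array (4.73), which stand here for genes without signal in skin, so the difference is a bound: cFLIP KO was at least 2.20-fold lower than TNF KO as deposited. This bound was not computed under the other scalings and may fall within 2-fold there. Csf1, the other CSF1R ligand, was at 6.64, 7.75 and 7.29, high on the cFLIP KO array by 1.11 and at least 2-fold under all 5. Id2, a transcriptional regulator that Langerhans cells require, was at 7.03, 7.36 and 8.03. Of the 16 measured genes of Langerhans cell identity and supply, 1 passed 2-fold upward and 1 downward in cFLIP KO and 0 did in cFLIP KO/TNF KO, with medians of 0.00 and 0.04.

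Of 15 further genes of costimulation and maturation, 1 was at least 2-fold higher than in TNF KO in each cFLIP-deficient genotype and 0 lower, with medians of 0.10 and 0.00. In cFLIP KO it was Cd274, encoding the inhibitory ligand PD-L1, at 5.26 in TNF KO, 7.23 in cFLIP KO and 0.74 above TNF KO in cFLIP KO/TNF KO. The other was Pdcd1lg2, encoding PD-L2, at 4.12, 5.03 and 5.14, which was within 2-fold under Actb (0.50) and after repeated quantile normalization (0.94). Cd274 differed from TNF KO by 1.96 in cFLIP KO (1.96 to 2.40 over the scalings), beside 0.49 for the activating Cd80 (0.49 to 0.78) and 0.25 for Cd86 (0.23 to 0.54). Of 10 migration genes, 3 passed 2-fold upward and 1 downward in cFLIP KO (Mmp2, by -1.06), and 1 upward in cFLIP KO/TNF KO (Mmp9), with medians of 0.03 and 0.30. Mmp2 was within 2-fold with reference genes (-0.77), the lowess trend (-0.39) and repeated quantile normalization (-0.30), and so was Mmp9 in cFLIP KO/TNF KO with Actb (0.83). Those above TNF KO in cFLIP KO were Il1b, the metalloproteinase gene Mmp9 and Cxcr4, a receptor that also takes part in the exit of dendritic cells from skin, at 6.03, 8.11 and 6.50. The CCR7 ligand Ccl19 was listed at 2.70, 3.41 and 3.00.

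**Figure D4:**
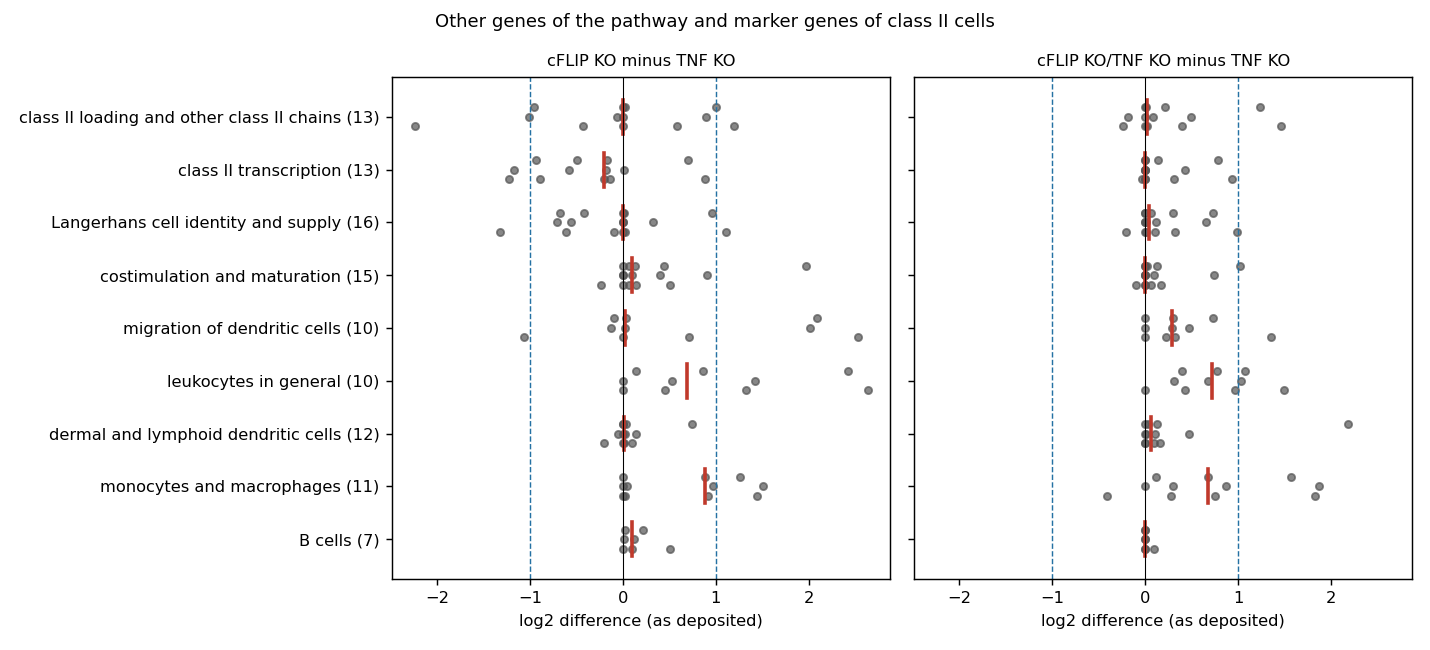
Log2 differences from TNF KO as deposited (horizontal axes) of genes in 9 lists, with the number measured in parentheses; each point is a gene, red bars are list medians and dashed lines 2-fold. Leukocyte, monocyte and macrophage markers lie mostly above 0 in both cFLIP-deficient genotypes, and B cell markers stay near 0.

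Class II molecules are also made by macrophages, dermal dendritic cells and B cells, so markers of these cells were read on the same arrays. Of 11 monocyte and macrophage markers, 3 lay 2-fold or more above TNF KO in cFLIP KO and 3 did in cFLIP KO/TNF KO, with 0 lower and medians of 0.89 and 0.68. Over the scalings the count was 3 to 6 in cFLIP KO. Their summed signal, as log2, was 9.90 for TNF KO, 10.74 for cFLIP KO, and 10.94 on the cFLIP KO/TNF KO array. Mrc1, the mannose receptor of macrophages and dermal dendritic cells, was at 7.93, 9.19 and 9.75, and Ly6c2, a gene of inflammatory monocytes, at 5.32, 6.21 and 7.20, in the same order. In both genes the cFLIP KO/TNF KO array was highest as deposited, while Cd68 (7.05, 8.01 and 7.73), Itgam (6.16, 7.67 and 7.03) and Cx3cr1 (5.81, 6.73 and 5.40) of the same list were highest in cFLIP KO. For Mrc1 the order of the cFLIP-deficient arrays turned after the lowess trend (0.13) and after repeated quantile normalization (0.03).

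Of 12 markers of dermal and lymphoid dendritic cells, 9 for TNF KO, 11 for cFLIP KO, and 9 on the cFLIP KO/TNF KO array were at or below the 95th percentile of olfactory receptor genes. Their summed signal was 7.54, 7.60 and 8.05. The gene that differed by 2-fold was Mgl2, a lectin of dermal dendritic cells and macrophages, at 4.00 for TNF KO, 3.80 for cFLIP KO, and 6.19 on the cFLIP KO/TNF KO array, a difference of 2.19 in cFLIP KO/TNF KO and at least 1.66 there under all 5 scalings. Its TNF KO value lay just above that percentile (3.99) and its cFLIP KO value below it (4.73), which limits what the size of the difference shows. All 7 measured B cell markers were at or below that percentile on all 3 arrays. Of 10 general leukocyte genes, 4 lay 2-fold or more above TNF KO in cFLIP KO and 3 did in cFLIP KO/TNF KO, with 0 lower and medians of 0.70 and 0.72. The first count was 4 to 7 over the scalings and the second 0 under Actb. Ptprc, the pan-leukocyte gene of CD45, was at 6.71, 7.24 and 7.38. Relative to Ptprc on the same arrays, Cd207 differed from TNF KO by -1.19 on the log2 scale in cFLIP KO and by -0.45 in cFLIP KO/TNF KO. Neutrophil genes, whose cells carry little class II, had 4 of 9 past 2-fold upward in cFLIP KO but 0 in cFLIP KO/TNF KO, with medians of 0.83 and 0.05. Of 8 T cell genes 0 passed 2-fold upward in either genotype and 1 downward, which was Cd3g, part of the T cell receptor complex of resident epidermal T cells, at -1.96 in cFLIP KO. The part of macrophages, monocytes and dermal dendritic cells in the class II signals was not tested.

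The labelled tissue was checked too. Keratinocyte genes were bright, with Krt14 at 13.00, 12.98 and 13.00. Of 10 measured, 3 lay 2-fold or more below TNF KO in cFLIP KO and 0 above, and 0 passed in cFLIP KO/TNF KO. These were Dsg1a, Krt15 and Krt1, by -2.21, -1.83 and -1.49, and the count was 2 after the lowess trend. Of all genes 9.15% were as low, and of the 2401 genes of highest mean signal 39.1%. The median gap of the keratinocyte genes to TNF KO was -0.58 for cFLIP KO but 0.00 for cFLIP KO/TNF KO. The former was 0.16 after the lowess trend and -0.15 after repeated quantile normalization, and the latter -0.52 under Actb. Dermal genes were bright as well, with Col1a1 at 11.18, 11.68 and 11.33. Of 9 fibroblast and endothelial genes, 0 passed 2-fold from TNF KO in either genotype as deposited, with medians of 0.13 and 0.34 (-0.18 under Actb). After the lowess trend 1 passed upward in cFLIP KO. The largest differences of the list in cFLIP KO/TNF KO were those of the fibroblast genes Dcn, by 0.63 (0.11 to 0.76 over the scalings), and Lum, by 0.89 (0.37 to 0.92). In cFLIP KO these 2 were at -0.38 and -0.30 as deposited, and at 0.38 and 0.26 after the lowess trend. The part of dermal RNA in the class II values was not tested.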

How the data were processed

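The data were 3 arrays of pooled epidermal RNA. The authors hybridized Affymetrix Mouse Gene 2.0 ST arrays, defined probe sets by ENTREZ gene with a custom CDF, used robust multiarray analysis for background correction and then quantile normalization, and the submitters' processing notes name RMA with no version. The values they deposited are taken as log2 signals, since they run from 2.48 to 13.82 and the log base is not stated. Of 24973 rows, 958 without a symbol in the platform annotation were left out, and 4 symbols with several probe sets were averaged. Samples were grouped by their source and genotype labels, which were followed where 1 title (that of the double knockout) reads otherwise. The methods' analysis of variance could not be run on 1 array per genotype, so no p-value or error was computed. The number of arrays limits the precision.

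The members and lists were chosen with earlier results of these data known. All members were named. The 3 genes of each list furthest from TNF KO could be named, and not all of them were. Others (among them H2-DMa, H2-DMb1, H2-Ea, Marchf8, Irf1, Ifng, Ccl19, Mmp2, Adgre1, Cd163, Ccr2, Csf1r, Mertk, Cd68, Itgam, Cx3cr1, Ptprc, Rplp0, Krt14 and Col1a1) were picked after their values were seen. Of 174 listed entries, 161 were measured with a symbol. Alternatives were thresholds of 1.5-fold and 3-fold, scaling by Actb or by 6 of 10 listed reference genes, a lowess trend (share 0.3, 3 iterations), repeated quantile normalization, leaving out genes below the median on all arrays, a floor at the 25th percentile, and, for symbols with several, the brightest probe set. The steps were tested on simulated data. Computation used Python 3.11.15 with numpy 2.4.6, pandas 2.3.3 and statsmodels 0.14.6, and plots used matplotlib 3.10.9.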

Additional observations from a re-analysis of the deposited data

Results flagged for a closer look

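H2-Aa was the one gene of the 10 whose differences from TNF KO had opposite signs in the cFLIP-deficient genotypes under all 5 scalings, negative in cFLIP KO and positive in cFLIP KO/TNF KO. Of these, the -0.91 of cFLIP KO was close to the median of the 2401 genes of highest mean signal (-0.79). Set against cFLIP KO/TNF KO, the cFLIP KO array differed by -1.73 on the log2 scale. Each genotype had 1 array and both differences share the TNF KO array, so this difference was not tested.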

How the results depend on the processing

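No paired analysis was possible because each genotype has 1 array, and for the same reason no array could be left out. Of 210 differences of single members recomputed under alternatives, 200 kept their side of 2-fold, 9 fell within it (Epcam and H2-Ab1), 1 passed it (H2-Ab1) and 0 past 2-fold changed sign. Against TNF KO, 1 member was at least 2-fold lower in cFLIP KO, 3 at 1.5-fold (15.5% of all genes), and 0 at 3-fold (3.42%), after the lowess trend or after repeated quantile normalization. In cFLIP KO/TNF KO 0 were higher, 3 at 1.5-fold and 1 after repeated quantile normalization. Between the cFLIP-deficient genotypes 3 were lower in cFLIP KO, 5 at 1.5-fold (15.3% of all genes), and 1 at 3-fold (2.52%), under Actb, after the lowess trend or after repeated quantile normalization. The median of the 10 genes in cFLIP KO was 0.03 as deposited, 0.068 with Actb, 0.32 with reference genes, 0.22 with the lowess trend and 0.20 after repeated quantile normalization. In the same order it was 0.27, -0.25, 0.28, 0.28 and 0.28 in cFLIP KO/TNF KO, and -0.48, 0.084, -0.20, -0.12 and -0.26 between the cFLIP-deficient genotypes. The class II mean less Cd207 was 0.43 in cFLIP KO, 0.77 after the lowess trend and 0.52 after repeated quantile normalization, then 0.48, 0.51 and 0.56 in cFLIP KO/TNF KO, and -0.05, 0.21 and -0.040 between the cFLIP-deficient genotypes. The cause was not tested. Ciita, Cd86 and Ccr7 were dim, with log2 signals under 6, which limits what their differences show.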
